A study of Mus musculus with 18 samples.

Results

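The miR-34 family was followed here through its 5 mature members mmu-miR-34a-5p, mmu-miR-34b-5p, mmu-miR-34b-3p, mmu-miR-34c-5p and mmu-miR-34c-3p, written below without the species prefix. They were taken by name from the deposited count table, in which each had 1 row, and they were 5 of 1907 mature miRNAs. All 5 passed the filter on low counts that left 547 miRNAs for testing. Small RNAs came from NIH/3T3, an immortalized mouse embryonic fibroblast line. An antibody against pseudouridine (Ψ), the isomer of uridine made by Ψ synthases, was used to immunoprecipitate RNA (Ψ-IP), and the RNA before IP was sequenced as input. The cells were unperturbed (WT), or carried a knockdown of Pus1, which encodes one of these synthases, and were taken on day 3 (KD3) or day 6 (KD6). Input and IP were sequenced from replicates A, B and C of each condition, giving 6 groups of 3 libraries and 18 libraries in all. All groups share the cell line, the sources used here do not say how Pus1 was knocked down, and no library was a control IP with another antibody. Nothing in the labels says whether the letters mark separate cultures, so p-values measure the spread between these libraries. Pus1 mRNA is not measured by a miRNA table, so the knockdown could not be checked in these values.

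miRNAs are cut from a hairpin whose 5′ arm (5p) and 3′ arm (3p) can each give a mature strand, and the strand loaded into an Argonaute protein pairs with target mRNAs mainly through its seed, the bases near its 5′ end. Genes of the miR-34 family are direct transcriptional targets of the tumor suppressor p53, and their 5p strands repress mRNAs for cell cycle and survival proteins such as CDK4, CDK6, MET and BCL2. miR-34a has a gene of its own, whereas miR-34b and miR-34c are made from a shared primary transcript. p53 activity was not measured in these libraries, so the family is described here by its sequences and levels.

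The mature sequences were taken from RefSeq (GRCm38.p6, the assembly that mm10 also names), which matched 4 of the 5 members, all but miR-34c-5p. They are shown because the seeds split these 4 by arm and because Ψ can arise only at a uridine. Each is written 5′ to 3′ with the seed, bases 2 to 8, in capitals.
miR-34a-5p: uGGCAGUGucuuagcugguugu
miR-34b-5p: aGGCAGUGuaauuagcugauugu
miR-34b-3p: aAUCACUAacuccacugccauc
miR-34c-3p: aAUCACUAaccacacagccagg
miR-34a-5p and miR-34b-5p shared the seed GGCAGUG, which among the 1623 miRNAs of the table with a RefSeq sequence was held otherwise only by miR-449a-5p and miR-449c-5p. The seed AUCACUA was held by miR-34b-3p and miR-34c-3p alone. These 3p strands had the same base at 17 of 22 positions counted from the 5′ end. miR-34a-5p held 9 uridines in 22 bases (40.9%) and miR-34b-5p held 8 in 23 (34.8%), against a median of 27.3% over the 474 tested miRNAs with a sequence. miR-34b-3p held 5 uridines in 22 bases (22.7%) and miR-34c-3p held 2 (9.09%). The dominant member miR-34c-5p, for which no sequence was matched, entered neither the seed comparison nor the uridine counts.

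In GRCm38, miR-34a-5p lies on the plus strand at chr4:150068473-150068494 within a hairpin of 102 bases that overlaps an exon of the unclassified transcript Gm37795. miR-34b-5p at chr9:51103610-51103632 and miR-34b-3p at chr9:51103574-51103595 come from the minus strand. miR-34c-3p lies at chr9:51103044-51103065 on that strand, and 451 bases separate the miR-34b and miR-34c hairpins. Both hairpins fall in an intron of Btg4, on the strand opposite to that gene.

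The table holds estimated counts, in which a read that matches several places is divided among them, and levels are given as CPM, the count scaled to a common library total, with library sizes adjusted by TMM, a scaling on the bulk of miRNAs. A read covers the whole mature strand, so CPM were not divided by length. Mapped reads ranged from 3989031 to 15099781 in 17 libraries, with only 241109 in replicate A of the KD6 input. In that library miR-34a-5p and miR-34c-3p each rested on 11 counts and miR-34b-3p on 35. Reads outside miRNA rows made up 5.60% ± 0.22 (SD, n = 3) of WT input and 16.8% ± 1.88 of WT IP. The 6 fibroblast markers miR-21a-5p, miR-199a-3p, miR-199a-5p, miR-214-3p, miR-143-3p and miR-145a-5p were all detected and together held 440133 to 467875 CPM in WT input, against 81160 to 103253 CPM in WT IP (CPM of marker lists carry no factors). The blood markers summed to at most 0.55 CPM in WT input and the epithelial markers to at most 2.86 CPM, while the neuronal pair summed to 1064 to 1197 CPM, from miR-9-5p with at most 2.7 counts of miR-124-3p in any library. The liver marker miR-122-5p had reads in all 18 libraries, at 25.9 to 37.8 CPM in WT input and 118 to 227 CPM in KD6 IP, and its part in the results was not tested. The IP therefore held a different mixture of miRNAs from input, and a member's IP over input ratio is given below both as fitted and relative to the median of all tested miRNAs.

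miR-34c-5p was the dominant member in every library. It gave 89.2% ± 0.38 (SD, n = 3) of the family's counts in WT input and between 85.7% and 90.7% in any library. It ranked 12 of 547 miRNAs by mean level in WT input and 29 of 547 in KD6 IP. miR-34b-5p ranked 75, miR-34b-3p 131, miR-34a-5p 150 and miR-34c-3p 182 in WT input. The order miR-34c-5p, miR-34b-5p, miR-34b-3p, miR-34a-5p, miR-34c-3p held in 16 of 18 libraries. In the shallow KD6 input replicate A miR-34a-5p and miR-34c-3p were level, and in KD6 input replicate C miR-34a-5p stood above miR-34b-3p. Summed, the family took 0.952% ± 0.0401 of the WT input miRNA counts and 0.601% ± 0.026 of those of WT IP. In KD3 it took 0.979% ± 0.0638 in input and 0.623% ± 0.0132 in IP, and in KD6 0.763% ± 0.124 and 0.307% ± 0.0521. The family thus took a smaller share of reads in IP than in input, a share to which no scaling factor was applied.

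**Figure D1:**
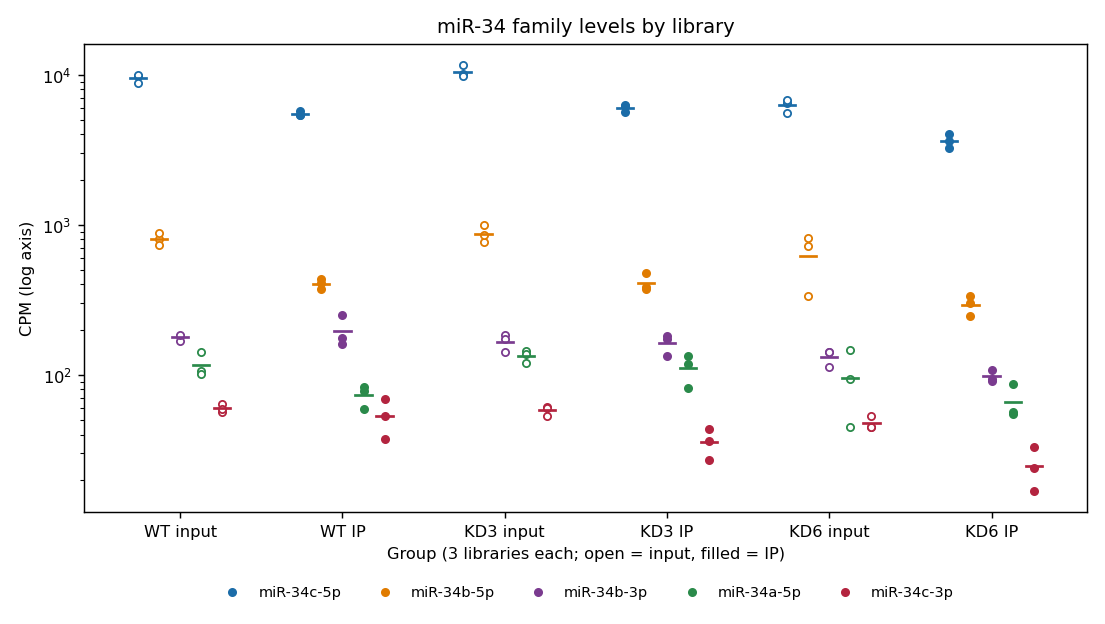
Level of each miR-34 member in CPM (log axis) in the 6 groups, with 1 point per library (open for input, filled for IP) and a bar at the mean of 3. miR-34c-5p stands between 3256 and 11546.5 CPM, above all other members in each library.

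The first question was which family members were found at higher or lower levels in the Ψ-IP than in input. Among the 5p strands, miR-34b-5p and miR-34c-5p were lower in IP in all 3 conditions. Their WT calls, and the KD3 call of miR-34c-5p, were lost with another TMM reference described below. Their KD6 calls were lost in a fit of only the KD6 libraries, and the KD3 call of miR-34b-5p held under every setting run. miR-34c-5p measured 9828, 8821 and 10019.6 CPM in WT input (replicates A, B and C) and 5375, 5711 and 5425 CPM in WT IP. In KD3 it measured 11546.5, 10021.5 and 9797 CPM in input and 6151, 6263 and 5650.0 CPM in IP. In KD6 it measured 5536, 6463 and 6771 CPM in input and 3256, 3993 and 3606 CPM in IP. In each condition every IP library lay below every input library.

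The log2 ratio of IP over input of miR-34c-5p was -0.80 ± 0.15 (SE) in WT, -0.80 ± 0.15 in KD3 and -0.79 ± 0.15 in KD6. The adjusted p-values (edgeR quasi-likelihood test, Benjamini-Hochberg) were 9.33e-05, 9.77e-05 and 9.35e-05. Levels in input were thus 1.74, 1.74 and 1.73 times those in IP. The median of all tested miRNAs was itself below 0, at -0.30, -0.30 and -0.32, so that relative to the median miR-34c-5p stood at -0.49, -0.50 and -0.47. With no factors the ratios were -0.60, -0.55 and -1.20, all passing, and in a fit of only the KD6 libraries the KD6 ratio did not pass (-0.38, adjusted p = 0.189).

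miR-34b-5p, made from the same primary transcript, measured 799, 734 and 884 CPM in WT input and 375, 432 and 409 CPM in WT IP. It measured 992, 768 and 850.0 CPM in KD3 input and 386, 372 and 477 CPM in KD3 IP. KD6 input gave 334, 721 and 813 CPM, and KD6 IP gave 248, 333 and 299 CPM. The shallow KD6 input replicate A was the lowest input library by far, and it lay only just above the highest KD6 IP library. The log2 ratios were -0.99 ± 0.24 (SE), -1.08 ± 0.24 and -1.11 ± 0.24 in WT, KD3 and KD6, with adjusted p = 0.00125, 0.000608 and 0.000443. Relative to the median of all miRNAs they were -0.69, -0.78 and -0.79. In a fit of only the KD6 libraries the KD6 ratio did not pass (-0.61, adjusted p = 0.0802).

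miR-34a-5p, the member most often studied as a p53 target, gave no ratio that passed the threshold as fitted, but its WT and KD6 ratios lay near it. It measured 106, 102 and 142 CPM in WT input and 78.3, 59.4 and 82.5 CPM in WT IP, groups that did not overlap. The groups overlapped in KD3, where input held 145, 137 and 121 CPM and IP 81.6, 118 and 133 CPM. They overlapped in KD6 too, with 44.8, 93.4 and 146 CPM in input and 54.6, 57.0 and 86.4 CPM in IP. The log2 ratios were -0.66 ± 0.29 (adjusted p = 0.053), -0.27 ± 0.29 (0.419) and -0.62 ± 0.30 (0.0756), and the KD3 ratio changed sign to 0.03 with RLE factors. The WT ratio passed in a fit of only the WT libraries (-0.65, adjusted p = 0.00787), with the replicate block (-0.65, 0.0342), with summed precursor rows (-0.70, 0.0362), total mapped reads (-0.73, 0.042) or library sizes of 1 row per miRNA (-0.73, 0.0335), and without WT IP replicate A (-0.79, 0.0404). The KD6 ratio passed with no factors (-1.02, adjusted p = 0.0121), total mapped reads (-1.45, 0.000414) or no filter (-0.87, 0.0248), without the shallow KD6 input replicate A (-0.87, 0.00653) and without KD6 IP replicate C (-0.95, 0.0156). Other settings moved both ratios the other way. The WT ratio was -0.39 with RLE factors (adjusted p = 0.163), -0.46 with no factors (0.219) and -0.39 with DESeq2 (0.193). With the TMM reference described below it was -0.04 (adjusted p = 0.894). The KD6 ratio was -0.11 with that reference (adjusted p = 0.715), -0.32 with RLE factors (0.274) and -0.07 in a fit of only the KD6 libraries (0.874).

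Of the 3p strands, miR-34b-3p gave no ratio that passed as fitted. It measured 183, 168 and 183 CPM in WT input and 251, 175 and 160.0 CPM in WT IP, with overlapping groups. KD3 input held 183, 174 and 142 CPM against 174, 134 and 180.3 CPM in KD3 IP, which also overlapped. KD6 input held 142, 141 and 114 CPM and KD6 IP 94.5, 91.5 and 107 CPM, with every IP library lower. Its log2 ratios were 0.14 ± 0.21, -0.03 ± 0.21 and -0.42 ± 0.22 in WT, KD3 and KD6 (adjusted p = 0.585, 0.894 and 0.093). The sign turned to 0.28 in KD3 with RLE factors and to 0.03 in KD6 with the TMM reference described below. With that reference the WT ratio passed as higher in IP (0.76, adjusted p = 0.00726). The KD6 ratio passed as lower with no factors (-0.81, adjusted p = 0.00493), total mapped reads (-1.25, 9.03e-05) and without KD6 IP replicate C (-0.56, 0.0465).

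miR-34c-3p, the least abundant member, measured 63.6, 56.6 and 59.3 CPM in WT input and 69.3, 53.2 and 37.6 CPM in WT IP. In KD3 the input held 61.0, 60.0 and 53.3 CPM and the IP 43.3, 26.9 and 36.5 CPM. In KD6 the input held 44.8, 45.1 and 53.5 CPM and the IP 16.8, 23.8 and 33.3 CPM. The groups overlapped in WT and were apart, with IP lower, in KD3 and KD6. The log2 ratio was -0.17 ± 0.26 in WT (adjusted p = 0.579, and 0.10 with RLE factors), -0.71 ± 0.26 in KD3 (0.0236) and -0.96 ± 0.28 in KD6 (0.0047). The KD3 call was lost with RLE factors (-0.39, adjusted p = 0.185), no factors (-0.45, 0.187), DESeq2 (-0.39, 0.223) and the TMM reference described below (-0.19, 0.578), and without KD3 IP replicate B (-0.60, 0.0908). The KD6 call was lost with that reference (-0.45, adjusted p = 0.199) and in a fit of only the KD6 libraries (-0.48, 0.299).

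Of the 5 members, 2 passed in WT, 3 in KD3 and 3 in KD6, all lower in IP. Over all 547 miRNAs, 65.4%, 65.3% and 68.4% passed in either direction and 39.3%, 39.3% and 37.8% passed as lower, so that a difference in this IP was common. Groups lay apart with IP lower for 3 members in WT, 3 in KD3 and 4 in KD6, against 43.7%, 44.2% and 26.3% of all miRNAs. In WT the middle 50% of all miRNAs ran from -2.23 to 1.05 and the members stood at percentiles 39.7 to 58.4. Calls depended on the scaling: with the shallow KD6 input replicate A as the TMM reference the WT ratios were -0.17 for miR-34c-5p (adjusted p = 0.32) and -0.37 for miR-34b-5p (0.104), the KD3 ratio of miR-34c-5p was -0.30 (0.0881), and the median of all miRNAs in WT moved to 0.32. Relative to the median of all miRNAs, over 15 edgeR settings with the filter, left-out libraries among them, miR-34c-5p in WT stayed between -0.61 and -0.47 and miR-34b-5p between -0.81 and -0.63.

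**Figure D2:**
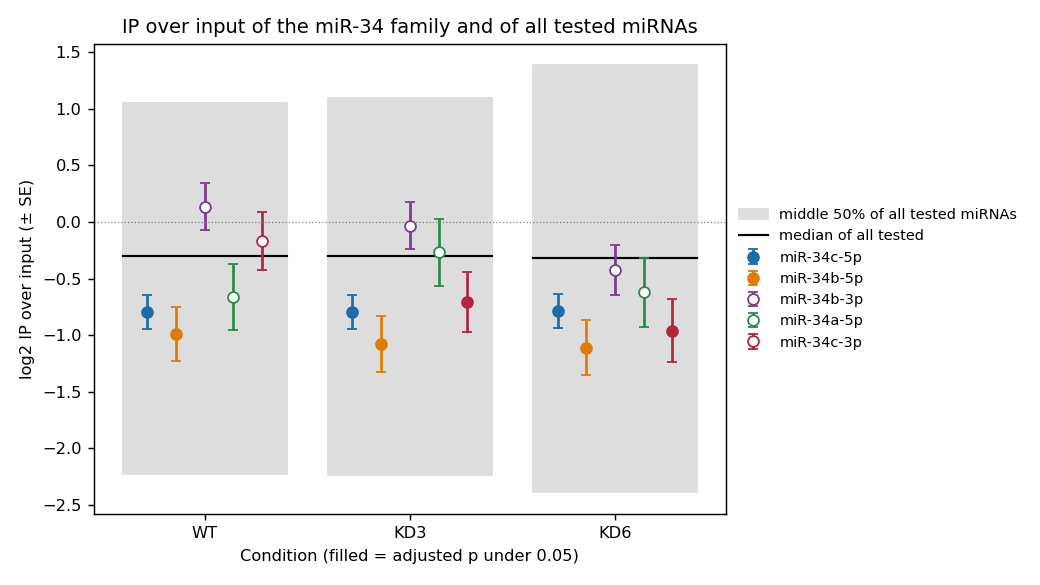
Log2 ratio of IP over input with its SE for each member in WT, KD3 and KD6 (filled where adjusted p is under 0.05), over a grey band for the middle 50% of all 547 tested miRNAs and a line at their median. All 5 members lie inside the band, with miR-34b-5p the lowest in each condition, at -0.99, -1.08 and -1.11.

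Ratios of members within 1 library do not depend on any scaling, and 5 of them were compared between the 9 IP and 9 input libraries by a two-sided exact permutation test within condition, adjusted over the 5 ratios. Ratios of other pairs of miRNAs were not tested, so these 5 have no background. In WT the log2 ratios of IP over input of all tested miRNAs had quartiles of -2.23 and 1.05. The distance between these quartiles exceeds each difference in ratio given below. Whether a difference that passed is particular to these members was not tested. The strands of the miR-34b hairpin were closer in count in IP than in input on average. In WT input miR-34b-5p outnumbered miR-34b-3p by 4.37, 4.38 and 4.83 times, and in WT IP by 1.495, 2.46 and 2.56 times. In KD3 the ratio was 5.42, 4.41 and 5.96 in input and 2.22, 2.77 and 2.65 in IP. In KD6 it was 2.33, 5.09 and 7.16 in input and 2.62, 3.64 and 2.79 in IP. Every IP library lay below every input library in WT and KD3, but not in KD6, where the shallow input replicate A was the lowest of all. The mean log2 ratio differed by -0.90 (IP minus input), with 1.33 ± 0.34 (SD, n = 9) in IP and 2.23 ± 0.45 in input (exact p = 0.001, adjusted p = 0.0025).

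The 3p strands of miR-34b and miR-34c, which share a seed and differ at 5 positions, stood further apart in count in IP than in input. miR-34b-3p outnumbered miR-34c-3p by 2.87, 2.96 and 3.08 times in WT input and by 3.62, 3.29 and 4.25 times in WT IP. In KD3 the ratio was 3.00, 2.90 and 2.67 in input and 3.995, 4.96 and 4.92 in IP. In KD6 it was 3.09, 3.13 and 2.12 in input and 5.56, 3.799 and 3.22 in IP. All 9 IP libraries lay above all 9 input libraries. The difference in mean log2 ratio was 0.53 (2.04 ± 0.28 in IP and 1.51 ± 0.17 in input, SD, n = 9), with exact p = 0.00025, the smallest that these permutations can give, and adjusted p = 0.00125.

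The other ratios did not pass. miR-34c-5p over miR-34c-3p differed by -0.14 on the log2 scale (exact p = 0.391, adjusted p = 0.391), with -0.59 in WT, -0.07 in KD3 and 0.23 in KD6. miR-34b-5p over miR-34c-5p differed by -0.23 (exact p = 0.057, adjusted p = 0.0881) and passed without the shallow KD6 input replicate A (-0.33, adjusted p = 0.00208). It also passed without KD3 IP replicate C (-0.28, adjusted p = 0.045). miR-34a-5p over miR-34c-5p differed by 0.34 (exact p = 0.0705, adjusted p = 0.0881) and passed without KD6 input replicate C (0.44, adjusted p = 0.0321).

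**Figure D3:**
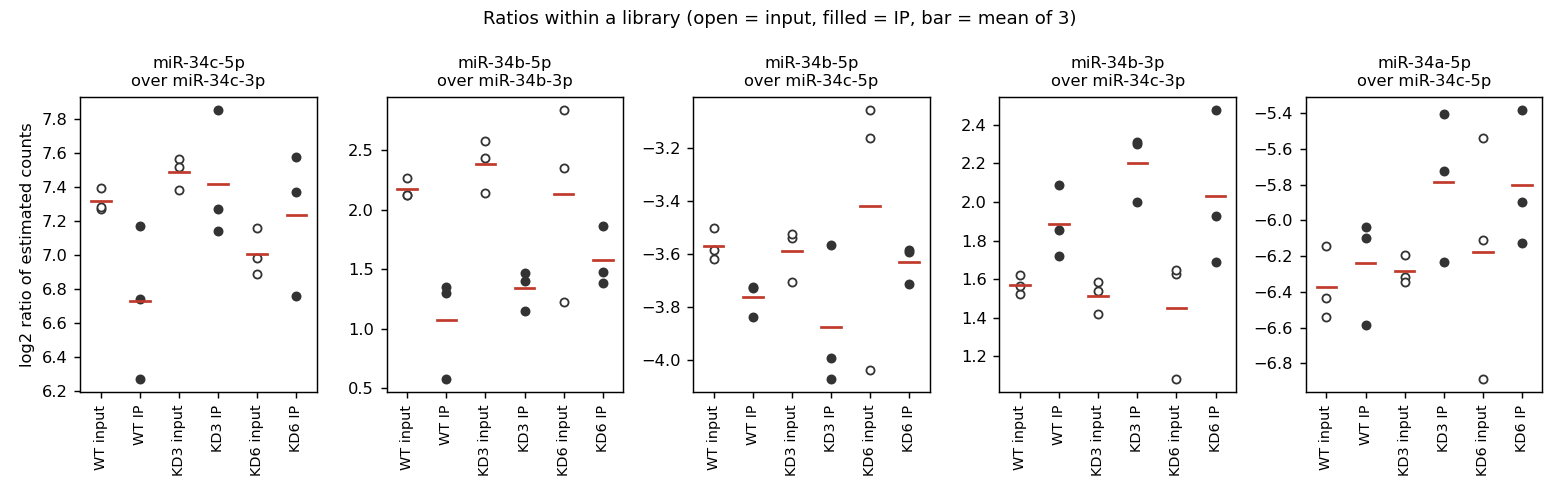
Log2 ratio of 2 members within each library for 5 pairs, by group (open for input, filled for IP, bar at the mean of 3). For miR-34b-3p over miR-34c-3p the IP libraries span 1.69 to 2.48 and the input libraries 1.08 to 1.65, and for miR-34b-5p over miR-34b-3p the IP libraries span 0.58 to 1.86 and the input libraries 1.22 to 2.84.

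The second question was whether the IP over input ratio of family members differed between WT, KD3 and KD6. None of the 5 passed in any of the 3 contrasts of ratios between conditions by edgeR's quasi-likelihood test, none had an unadjusted p under 0.05, and DESeq2's Wald test called none. Over all miRNAs, 0% passed for KD3 against WT, 0% for KD6 against WT and 0.183% for KD6 against KD3, with 15 (2.74%), 98 (17.9%) and 102 (18.6%) of 547 at an unadjusted p under 0.05. DESeq2 called 0, 31 and 22 miRNAs.

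For miR-34c-5p, the most precisely measured member, the ratio in KD6 differed from that in WT by 0.01 on the log2 scale (95% interval -0.43 to 0.44), a sign that turned to -0.05 with RLE factors and to -0.60 with no factors. For KD3 against WT that interval was -0.44 to 0.44. miR-34b-5p differed by -0.12 (-0.83 to 0.59) between KD6 and WT and by -0.09 (-0.80 to 0.62, turning to 0.02 with summed precursor rows) between KD3 and WT. miR-34a-5p, with 0.04 (-0.84 to 0.92) and 0.39 (-0.47 to 1.26), had the widest intervals of the 5p strands, and the first of these values turned to -0.55 with no factors. With 3 libraries a group, a true change anywhere within these intervals remained compatible with the values.

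The 3p strands had the lowest values in the contrasts against WT, whereas between KD6 and KD3 miR-34a-5p (-0.35) lay below miR-34c-3p (-0.25). Between KD6 and WT, miR-34c-3p differed by -0.79 (-1.58 to 0.0035, adjusted p = 0.279) and miR-34b-3p by -0.56 (-1.19 to 0.07, adjusted p = 0.321). Between KD3 and WT they differed by -0.54 and -0.17. With total mapped reads as library size, which counts the reads outside miRNA rows (27.6% ± 3.83 of KD6 IP and 8.82% ± 1.68 of KD6 input), miR-34c-3p passed at -1.55 (adjusted p = 0.0409), miR-34b-3p at -1.33 (0.0366) and miR-34c-5p at -0.77 (0.0442). Under that setting the median of all miRNAs in KD6 was -1.14 for IP over input, against -0.38 in WT. Of the 564 miRNAs tested under it, 51 passed for the KD6 to WT change, 0 of them higher, and the median change was -0.56.

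The third comparison was of the input libraries, which show family levels without IP. miR-34c-5p was lower in KD6 than in both other conditions, and no other member passed. Its 3 KD6 input values, 5536 to 6771 CPM, all lay below the WT values of 8821 to 10019.6 CPM and the KD3 values of 9797 to 11546.5 CPM. The log2 difference was -0.61 ± 0.15 (SE) against WT (adjusted p = 0.0237), a WT level 1.53 times that of KD6, and -0.74 ± 0.15 against KD3 (adjusted p = 0.0067), with a KD3 level 1.67 times that of KD6. Among all miRNAs 4.57% passed between KD6 and WT (3.84% as lower) and 6.4% between KD6 and KD3 (5.12% as lower). Groups lay apart with KD6 lower for 3 members against WT and 2 against KD3, and for 22.3% and 22.9% of all miRNAs. In such bulk libraries fewer cells with the miRNA and less of it per cell cannot be told apart. The labels give no day for WT, and no group was a control matched for day or for the knockdown procedure. Loss of Pus1, time and the procedure therefore cannot be told apart in these contrasts or in those of IP over input ratios. As a share of miRNA reads, with no factors, miR-34c-5p held 0.849% ± 0.0355 in WT input, 0.876% ± 0.0561 in KD3 input and 0.668% ± 0.0929 in KD6 input.

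The call against WT rested on the scaling and on single libraries. Without factors the difference was -0.34 (adjusted p = 0.333) and with RLE factors -0.39 (0.221). The call was also lost with total mapped reads, no filter, KD6 input replicate A as TMM reference and a fit of only the libraries compared. TMM factors were 0.927 to 0.989 in WT input and 1.05 to 1.25 in KD6 input. Leaving out WT input replicate A, B or C gave adjusted p = 0.132, 0.0824 and 0.165, and leaving out KD6 input replicate C gave 0.0876, with log2 differences between -0.67 and -0.57. Without the shallow KD6 input replicate A the call held (-0.53, adjusted p = 0.0263), as it did with DESeq2 (-0.39, adjusted p = 0.0336). The sign was negative under every setting run. Against KD3 the call was lost with no factors (-0.38, adjusted p = 0.186), total mapped reads, KD6 input replicate A as TMM reference and a fit of only the libraries compared. It held with each library left out in turn.

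The other members were lower in KD6 than in WT input by less, and none of these differences passed. The log2 differences were -0.44 (95% interval -0.89 to 0.01) for miR-34b-3p, -0.35 (-0.85 to 0.15) for miR-34b-5p, -0.30 (-0.87 to 0.26) for miR-34c-3p and -0.19 (-0.81 to 0.43) for miR-34a-5p, against a median of -0.18 over all miRNAs. The miR-34a-5p value turned to 0.09 with no factors. Between KD3 and WT input 0 of 5 members passed edgeR's quasi-likelihood test, 0 had an unadjusted p under 0.05 and DESeq2 called 0, against 0.366%, 7.31% and 10 of all miRNAs. The log2 differences lay between -0.09 and 0.21, and the signs of all but miR-34a-5p changed under some setting. For miR-34c-5p the interval of that difference was -0.18 to 0.44.

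**Figure D4:**
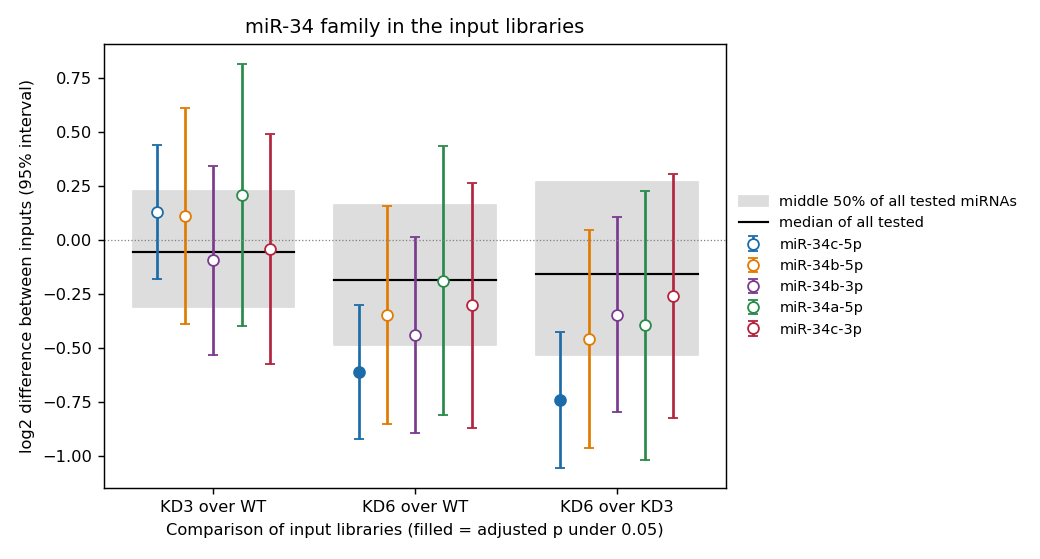
Log2 difference between input groups with its 95% interval for each member (filled where adjusted p is under 0.05), over a grey band for the middle 50% of all tested miRNAs and a line at their median. miR-34c-5p lies at -0.61 for KD6 over WT and at -0.74 for KD6 over KD3, below the band in both, and at 0.13 for KD3 over WT.

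By group, the mean level of miR-34c-5p ran in the order KD3 input (10455 CPM), WT input (9556), KD6 input (6257), KD3 IP (6021), WT IP (5504) and KD6 IP (3619). The ranges of neighbors overlapped except between WT input and KD6 input and between WT IP and KD6 IP. For miR-34b-5p the only gap was between WT IP (405 CPM) and KD6 IP (293), and for miR-34b-3p between KD6 input (132 CPM) and KD6 IP (97.7). For miR-34c-3p it was between KD6 input (47.8 CPM) and KD3 IP (35.6), and for miR-34a-5p all neighbors overlapped, from 134 CPM in KD3 input to 66.0 CPM in KD6 IP. KD6 IP was thus the lowest group for each member.

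Relatives of the family were almost absent. miR-34a-3p, the other strand of the miR-34a hairpin, reached at most 8 counts in a library, was present in 6 libraries and was at 0 in all IP libraries. miR-449a-5p, which carries the miR-34 seed and is typical of multiciliated epithelium, reached at most 6 counts, and miR-449b at most 4.8. miR-449a-3p reached 3 counts in 1 library, and miR-449c-5p and miR-449c-3p were at 0 throughout, where a count of 0 allows up to 3 counts per library. None of these passed the filter.

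Other miRNAs tied to p53 were taken from a list of 11 that p53 is known to induce or whose processing it promotes, of which 9 were tested. In WT IP 6 were lower and 0 higher than in input, with a median log2 ratio of -2.41 against -0.30 for all miRNAs, of which 39.3% were lower. The lowest was miR-194-5p at -4.63 (adjusted p = 8.94e-06), and miR-192-5p, from the same cluster, stood at -4.003 (2.15e-11) and miR-143-3p, an abundant miRNA of mesenchymal cells, at -2.79 (2.31e-11). The highest was miR-200c-3p, a miRNA of epithelial cells, at 1.01 (adjusted p = 0.187). Both extremes lay at low levels. miR-194-5p held 5.44 ± 0.62 CPM (SD, n = 3) in WT input and 0.19 ± 0.17 in WT IP, and exceeded 3 counts in 9 of 18 libraries. miR-200c-3p held 1.04 ± 0.34 CPM in WT input and 2.06 ± 0.67 in WT IP. In KD3 IP 7 were lower and 1 higher, and in KD6 IP 5 were lower and 1 higher, against 39.3% and 37.8% of all miRNAs as lower. Between KD6 and WT inputs 0 of the 9 passed (4.57% of all miRNAs), and between KD3 and WT inputs 1 did (0.366% of all), miR-143-3p at 0.76 (adjusted p = 0.0442).

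Between KD6 and KD3 inputs miR-194-5p was higher (1.85, adjusted p = 0.0189) and miR-143-3p lower (-0.65, 0.0189), while 7 did not pass, against 6.4% of all miRNAs that passed. The miR-194-5p call rested on low levels, 9.04 ± 8.39 CPM (SD, n = 3) in KD6 input, which includes the shallow replicate A, and 3.31 ± 0.53 in KD3 input. Of 4 miRNAs known to repress p53 itself, 3 were tested and miR-504-5p was at 0 in all libraries. miR-30d-5p was higher in IP in all 3 conditions, at 1.10, 0.74 and 1.77 (adjusted p = 2.14e-05, 0.00111 and 4.1e-08), and miR-125b-5p (0.06 in WT, adjusted p = 0.872) and miR-25-3p (-0.13, 0.651) did not pass. Of all 547 miRNAs, 143, 142 and 167 passed as higher in WT, KD3 and KD6 IP, so 1 of 3 does not set this list apart. miR-143-3p and miR-145a-5p are also among the fibroblast markers.

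The profile of miR-34c-5p over the 18 libraries was compared with those of 148 other miRNAs with a mean of at least 100 CPM by Pearson's r of log2 CPM. The most similar were miR-299a-3p (r = 0.922), miR-214-3p (0.914), miR-185-5p (0.913), miR-378c (0.910) and miR-652-3p (0.908), against a median r of 0.374. All 5 were lower in WT IP than in input, by log2 ratios of -3.44 to -2.22, so they shared the direction of miR-34c-5p over input and IP but with larger differences. After group means were subtracted, the most similar were miR-148b-3p (0.845), miR-542-3p (0.822) and miR-450b-5p (0.737). Within the family, over the same 18 libraries, r was 0.916 for miR-34b-5p and miR-34c-5p, 0.772 for miR-34b-3p and miR-34c-3p, 0.769 for the strands of miR-34c and 0.395 for those of miR-34b. The libraries share their scaling and their split into input and IP, which enter each of these values.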

How the data were processed

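The authors ran the reads of the 18 small RNA libraries through SeqImp (version not given in the sources used here) with mm10, Ensembl 89 and miRBase 21, and deposited estimated counts of mapped reads per miRNA row, not normalized, with replicates kept apart, together with the number of distinct read sequences. Of the members' 90 estimated counts, 75 were not whole (tolerance 0.05), which can occur where reads shared by similar miRNAs are divided. Over 18 libraries, whole values numbered 1 for miR-34c-5p, 2 each for miR-34b-5p and miR-34b-3p, 4 for miR-34c-3p and 6 for miR-34a-5p. The split of counts among the 5p strands, and between miR-34b-3p and miR-34c-3p, therefore carries that uncertainty. Its part in the ratios and r values of members was not tested. The total of mapped reads was kept out of the tests.

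For testing, the estimated counts were rounded and fitted with edgeR 4.0.16 (R 4.3.3, limma 3.58.1, filterByExpr, TMM, glmQLFit, glmQLFTest) in 1 model of 6 group means over 18 libraries, in 9 contrasts, each adjusted by Benjamini-Hochberg over 547 miRNAs with a threshold of 0.05. Each SE was derived from the log2 ratio and its F statistic. Library sizes were recomputed after the filter, for which edgeR takes WT IP replicate A as the TMM reference. With sizes of all miRNA rows it takes the shallowest library, KD6 input replicate A. This choice was made after seeing how the median of all miRNAs moved with it, and both are reported.

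Ratios within a library used a pseudocount of 0.5 on estimated counts and 8000 exact permutations. DESeq2 1.42.0, RLE factors, no factors, total mapped reads, no filter, summed precursor rows, subsets and left-out libraries were alternatives. The scripts were tested on simulated data. The named miRNAs are the 5 members, their relatives, the lists of p53-linked miRNAs, the cell type markers, and the 5 and 3 miRNAs with the highest r with miR-34c-5p. Members and lists were chosen with earlier results of these data known. The 95% intervals come from the edgeR fit and include the spread between libraries, whereas floors of 3 counts cover counting error only. Letters counted as pairing libraries where each of 3 letters gave r over 0.1 for deviations from group means over 197 miRNAs. This held for KD3 against WT input (0.587, 0.217 and 0.33) and KD6 against KD3 input (0.244, 0.289 and 0.323), from the data alone, and in no other comparison checked. IP groups were not checked against each other. With a replicate block, 0 members passed between KD3 and WT inputs (1 of all 547 miRNAs). Between KD6 and KD3 inputs 1 member passed with the block (31 of all 547).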

Additional observations from a re-analysis of the deposited data

Results flagged for a closer look

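A pair of within-library ratios stood apart from the other 8 of the 9 input libraries, among 10 such groups examined, where chance alone sets apart about 1 group in 20. The log2 ratio of miR-34b-5p over miR-34b-3p was 1.22 in KD6 input replicate A, against 2.13 to 2.84 in the other input libraries. That library held 241109 mapped reads, with 82.3 estimated counts of miR-34b-5p and 35 of miR-34b-3p. The log2 ratio of miR-34b-3p over miR-34c-3p was 1.08 in KD6 input replicate C, against 1.42 to 1.65 in the others. That library held 9256836 mapped reads.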

How the results depend on the processing

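Of 90 counts of passing members under alternatives, 74 stayed within 1.5 times of the reported count and 16 did not. Of 450 member values, 363 kept direction and call, 21 lost a call, 13 gained one and 53 changed sign. No member with a call as reported changed sign under a setting run, left-out libraries included. The cause of the changes was not tested. Values from 3 libraries a group, and from the shallow KD6 input replicate A, limit the smaller members most.

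Passing members in WT IP numbered 2 as reported, 1 with KD6 input replicate A as TMM reference (an alternative chosen after seeing the data, as were library sizes of 1 row per miRNA) and 2 to 3 with 1 library left out. The 1 with that reference was neither of the 2 reported but miR-34b-3p, higher in IP (0.76, edgeR adjusted p = 0.00726). Passing members in KD3 IP numbered 3, 1 with that reference (miR-34b-5p, lower in IP) and 2 to 3 with 1 library left out. In KD6 IP they numbered 3, 5 with no factors, 5 with total mapped reads, 0 with only the libraries compared and 3 to 5 with 1 library left out (5 without KD6 IP replicate C). Over all miRNAs 384 of 547 passed in KD6 IP with no factors, 397 of 564 with total mapped reads and 273 of 414 with only the libraries compared. Of the passing miRNAs, 39.9%, 39.8% and 44.7% were higher in WT, KD3 and KD6 IP as reported, 56.0%, 53.8% and 53.8% with that reference, and 27.7% in KD6 with total mapped reads. For the change between KD6 and WT 0 became 3 with total mapped reads, where 51 of all 564 miRNAs passed. For KD6 against WT input 1 became 0 with RLE factors, no factors, total mapped reads, no filter, that reference and only the libraries compared, and 0 to 1 with 1 library left out. For KD6 against KD3 input 1 became 0 with no factors, total mapped reads, that reference and only the libraries compared.

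With a replicate block, ratios of miR-34b-5p (-0.23, adjusted p = 0.0439) and miR-34a-5p (0.34, adjusted p = 0.0439) over miR-34c-5p passed in an exact sign-flip permutation test over 9 pairs, miR-34a-5p passed in WT IP (edgeR adjusted p = 0.0342), and miR-34b-5p in the KD6 to KD3 change turned to 0.013. The letters gave r of -0.02, -0.19 and -0.14 between WT IP and input. With 1 library left out the ratios ran from -0.22 to -0.06 for miR-34c-5p over miR-34c-3p, -1.05 to -0.78 for miR-34b-5p over miR-34b-3p, -0.33 to -0.17 for miR-34b-5p over miR-34c-5p, 0.45 to 0.58 for miR-34b-3p over miR-34c-3p and 0.22 to 0.44 for miR-34a-5p over miR-34c-5p.

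The sign changes were as follows, on the log2 scale. With RLE factors they were miR-34c-3p 0.097 in WT IP, miR-34a-5p 0.029 and miR-34b-3p 0.28 in KD3 IP, miR-34c-5p -0.055 in the KD6 to WT change and miR-34c-5p -0.095 in the KD6 to KD3 change. With no factors they were miR-34c-3p 0.034 in WT IP, miR-34b-3p 0.22 in KD3 IP, miR-34a-5p -0.55 and miR-34c-5p -0.60 in the KD6 to WT change, miR-34c-5p -0.65 in the KD6 to KD3 change, miR-34a-5p 0.095 in KD6 against WT input and miR-34b-3p 0.0007 and miR-34c-3p 0.10 in KD6 against KD3 input. With KD6 input replicate A as TMM reference they were miR-34c-3p 0.46 in WT IP, miR-34a-5p 0.21 and miR-34b-3p 0.48 in KD3 IP, miR-34b-3p 0.026 in KD6 IP, miR-34c-5p -0.12 in the KD3 to WT change, miR-34a-5p -0.075 and miR-34c-5p -0.21 in the KD6 to WT change and miR-34c-5p -0.087 in the KD6 to KD3 change. With DESeq2 they were miR-34c-3p 0.096 in WT IP, miR-34a-5p 0.03 and miR-34b-3p 0.28 in KD3 IP, miR-34c-5p -0.051 in the KD6 to WT change and miR-34c-5p -0.091 in the KD6 to KD3 change. With summed precursor rows they were miR-34b-3p 0.035 in KD3 IP, miR-34b-5p 0.015 in the KD3 to WT change, miR-34c-5p -0.089 in the KD6 to KD3 change and miR-34b-5p -0.0048 in KD3 against WT input. With library sizes of 1 row per miRNA they were miR-34b-3p 0.021 in KD3 IP, miR-34b-5p 0.028 in the KD3 to WT change, miR-34c-5p -0.044 in the KD6 to KD3 change and miR-34b-5p -0.0052 in KD3 against WT input. With only the libraries compared they were miR-34b-3p 0.063 in KD3 IP, miR-34b-5p 0.025 in the KD3 to WT change and miR-34c-5p -0.051 in the KD6 to KD3 change. With total mapped reads they were miR-34c-5p -0.21 in the KD3 to WT change, miR-34a-5p -0.73 and miR-34c-5p -0.77 in the KD6 to WT change, miR-34c-5p -0.56 in the KD6 to KD3 change, miR-34b-5p -0.038 and miR-34c-5p -0.018 in KD3 against WT input, miR-34a-5p 0.028 in KD6 against WT input and miR-34b-3p 0.0009 and miR-34c-3p 0.093 in KD6 against KD3 input. With no filter they were miR-34c-5p -0.13 in the KD3 to WT change, miR-34a-5p -0.16 and miR-34c-5p -0.15 in the KD6 to WT change, miR-34c-5p -0.023 in the KD6 to KD3 change and miR-34b-3p 0.041 and miR-34c-3p 0.091 in KD3 against WT input. With 1 library left out the ranges that crossed 0 were miR-34b-3p -0.14 to 0.26 and miR-34c-3p -0.45 to 0.031 in WT IP, miR-34b-3p -0.17 to 0.042 in KD3 IP, miR-34c-5p -0.10 to 0.018 in the KD3 to WT change, miR-34a-5p -0.28 to 0.44, miR-34b-5p -0.44 to 0.095 and miR-34c-5p -0.36 to 0.073 in the KD6 to WT change, miR-34a-5p -0.59 to 0.13, miR-34b-5p -0.27 to 0.26 and miR-34c-5p -0.037 to 0.14 in the KD6 to KD3 change, miR-34b-3p -0.11 to 0.036 and miR-34c-3p -0.024 to 0.049 in KD3 against WT input and miR-34a-5p -0.59 to 0.045 in KD6 against WT input.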

Other observations

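The deposited number of distinct read sequences per miRNA differed between the strands of miR-34b in a way that their counts did not. miR-34b-3p had fewer counts than miR-34b-5p in all 18 libraries, yet it had more distinct sequences in 14 of 18. In WT input each distinct sequence of miR-34b-5p stood for 105 ± 1.15 counts (SD, n = 3), and each of miR-34b-3p for 18.7 ± 2.16. In WT IP these were 54.0 ± 0.89 and 16.0 ± 0.40. miR-34c-5p gave 177 ± 8.72 counts per distinct sequence in WT input and 88.7 ± 4.04 in WT IP, and miR-34c-3p 13.3 ± 3.00 and 10.5 ± 0.12. miR-34a-5p gave 14.8 ± 2.51 and 8.42 ± 1.201. The WT IP libraries held 4525099 to 8185779 mapped reads and the WT input libraries 9973764 to 12530362, and the part of depth in these values was not tested.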
